A study of Rattus norvegicus with 12 samples.

Results

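Myosin heavy chains are the motor proteins of the thick filament, and the isoform that a muscle fibre makes goes with how fast it contracts. Embryonic myosin (Myh3) is made in developing and regenerating fibres, slow myosin (Myh7) in slow oxidative fibres, and the adult fast myosins 2A (Myh2), 2X (Myh1) and 2B (Myh4) in fast fibres. In rodents, muscles are born with mainly developmental isoforms, and the adult fast isoforms take over in the weeks after birth. The 5 genes were taken by their platform symbol from the 18957 probe sets that the authors kept as detected. Each had 1 probe set, and all 5 were detected: 10734493 for Myh3, 10783715 for Myh7, 10734530 for Myh2, 10734556 for Myh1 and 10734583 for Myh4. The neonatal isoform Myh8 has no probe set named here.

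The arrays measured RNA of hind leg skeletal muscle from male Wistar rat pups at birth, whose dams were on 1 of 3 regimens from gestation day 1. Dams of the LP+tau group ate low protein food and were given taurine, a sulphonic acid made from cysteine, at 2% w/v in their water. LP dams ate low protein food without taurine, and Con dams ate the control diet. Each array held muscle RNA pooled from 3 male pups of 1 dam, with 4 dams per group and 12 arrays in all, so the dam was the replicate and littermates could not be told apart. The design asks whether a low protein diet in pregnancy alters gene expression in the muscle of the newborn, and whether taurine alters that response. No group had taurine without the low protein diet.

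Myh3, Myh2, Myh1, Myh4, Myh8 and Myh13 follow each other on rat chromosome 10, whereas Myh7 lies on chromosome 15. In the RefSeq promoter windows (rat assembly GRCr8, plus strand), the 3 adult fast genes share 1 unbroken run of 20 bases that was found in neither the Myh3 nor the Myh7 window. Shown for each gene are 148 bases, from 250 to 103 bases before the start used for its promoter, with the run in capitals. Their length did not depend on the run. It was set so that the window ends before the first base annotated as gene in any of the 3. In at least 1 of them the annotated gene thus begins right after the window, ahead of the promoter start.
Myh2, chr10:52355489-52355636: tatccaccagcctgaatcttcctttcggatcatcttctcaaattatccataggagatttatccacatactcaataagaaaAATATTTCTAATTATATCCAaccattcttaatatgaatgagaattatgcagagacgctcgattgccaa
Myh1, chr10:52384662-52384809: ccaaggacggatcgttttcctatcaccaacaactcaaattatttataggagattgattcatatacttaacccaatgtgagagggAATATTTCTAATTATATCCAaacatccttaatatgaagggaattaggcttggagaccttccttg
Myh4, chr10:52421898-52422045: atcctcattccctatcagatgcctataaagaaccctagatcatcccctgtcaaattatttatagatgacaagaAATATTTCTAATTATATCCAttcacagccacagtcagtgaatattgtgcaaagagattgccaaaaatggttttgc
The run begins 170 bases before the promoter start in Myh2, 166 in Myh1 and 177 in Myh4. On either strand it was in 3 of 33469 windows of the same length, or 0.00896%, and those were the 3 fast genes. The run was picked because these 3 windows share it, so its presence there was given and the share is no test. The Myh2 and Myh1 windows were identical at 68.3% of aligned positions, Myh2 and Myh4 at 53.3%, and Myh1 and Myh4 at 51.7%. The Myh3 window was identical to that of Myh1 at 50.8%, of Myh2 at 48.4% and of Myh4 at 46.2%. Of known muscle motifs, searched on both strands, the E-box CANNTG had 1 match in Myh4 and none in Myh2 or Myh1 (47.7% of all windows hold one), the MCAT element CATTCC had 1 match in Myh4 and none in Myh2 or Myh1 (7.22%), and the MEF2 motif had 1 match each in Myh1 and Myh4 and none in Myh2 (1.86%). None of these matches overlapped the shared run. A shared or absent motif is a description of these letters and says nothing of binding.

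The labelled tissue was borne out by its markers: skeletal actin (Acta1) lay between 13.61 and 13.73 on the log2 scale over the 12 arrays and myosin light chain Myl1 between 13.05 and 13.21. Array medians were 7.71 to 7.74 in LP+tau, 7.73 to 7.76 in LP and 7.66 to 7.67 in Con. Hepatocyte transcripts stood apart in 2 control arrays, where the mean of 16 measured markers of 23 listed was 10.72 in Con 3 and 11.60 in Con 4, against 6.82 in Con 1, 7.05 in Con 2, 6.84 to 7.49 in LP+tau and 6.92 to 8.18 in LP. The log2 of their linear sum was 11.05 to 11.96 in LP+tau, 11.17 to 12.91 in LP and 11.02 to 16.26 in Con. The highest correlation between any 2 arrays was 0.994, and no arrays were identical. In these bulk samples, fewer cells of a type and less RNA per cell cannot be told apart. Levels of different probe sets are not comparable, so each gene was compared only with itself across arrays. By mean signal over the 12 arrays, the probe sets of Myh3 and Myh7 were at percentiles 99.2 and 96.6 of the detected probe sets. Those of Myh2, Myh4 and Myh1 had weaker signals, at percentiles 48.9, 38.6 and 27.9, below the median. The number of arrays limits the precision.

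Of the 5 myosin heavy chains, only fast Myh2 passed the test, and only in LP+tau against Con. Its level there was 1.54-fold that of Con. Slow Myh7 was 1.21-fold and fast Myh1 1.23-fold the Con level in the same comparison without passing, and embryonic Myh3 and fast Myh4 differed from Con by less than the spread between arrays. Neither of the other comparisons called a member. All tests are limma's moderated tests on the log2 values of all 12 arrays, with Benjamini-Hochberg adjustment over the 18957 probe sets and a threshold of 0.05 on the adjusted p.

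**Figure D1:**
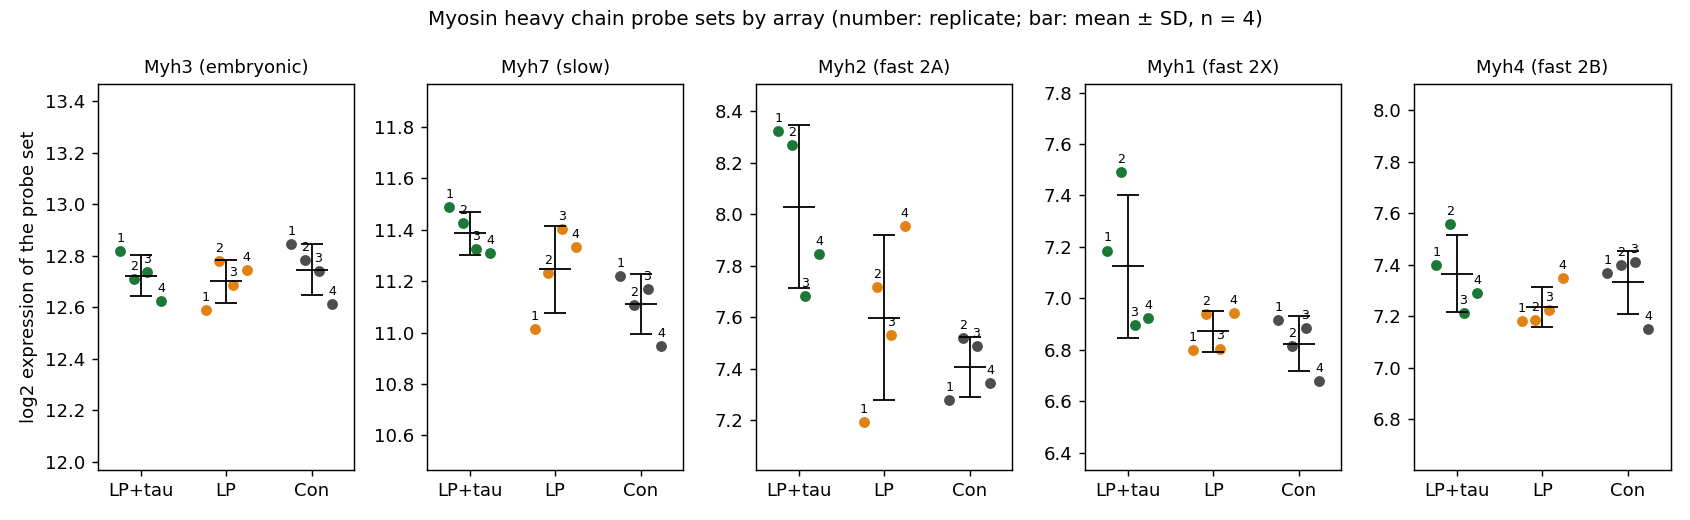
Log2 expression of each myosin heavy chain probe set (vertical axis; every panel spans 1.5 log2 units) on the 4 arrays of LP+tau, LP and Con, with replicate numbers beside the points and bars for the group mean ± SD. The 4 LP+tau points lie above all 4 Con points for Myh7 and Myh2, and the groups overlap for Myh3, Myh1 and Myh4.

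Embryonic Myh3 had log2 values of 12.82, 12.71, 12.74 and 12.63 on LP+tau arrays 1 to 4. It had 12.59, 12.78, 12.69 and 12.75 on the LP arrays and 12.85, 12.78, 12.74 and 12.61 on the Con arrays. All 3 groups overlapped over nearly their whole range. Group means were 12.72 ± 0.08 in LP+tau, 12.70 ± 0.08 in LP and 12.75 ± 0.10 in Con (SD, n = 4 each). The log2 difference was -0.02 in LP+tau against Con (95% interval -0.16 to 0.12, limma adjusted p = 0.814), -0.05 in LP against Con (-0.19 to 0.09, adjusted p = 0.588) and 0.02 in LP+tau against LP (adjusted p = 0.918). Its sign in both taurine comparisons turned when single arrays were left out.

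Slow Myh7, the beta myosin shared by slow fibres and the heart ventricle, had 11.49, 11.42, 11.32 and 11.31 on the LP+tau arrays. LP arrays read 11.02, 11.23, 11.40 and 11.33, and Con arrays 11.22, 11.11, 11.17 and 10.95. The lowest LP+tau array lay above the highest Con array, while the LP arrays spanned from within the Con range to within the LP+tau range. Means were 11.39 ± 0.08 in LP+tau, 11.25 ± 0.17 in LP and 11.11 ± 0.12 in Con. The log2 difference of LP+tau from Con was 0.27 (SE 0.09, 95% interval 0.09 to 0.46), and its limma adjusted p of 0.0509 missed the threshold by a small margin. It passed under 3 of 26 other settings, among them leaving out LP 1 (limma adjusted p = 0.0328). LP differed from Con by 0.13 (-0.05 to 0.32, adjusted p = 0.226) and LP+tau from LP by 0.14 (-0.05 to 0.33, adjusted p = 0.555). Heart muscle also makes Myh7, and the mean of 7 measured heart markers of 8 listed was 7.84 to 8.18 in LP+tau, 7.75 to 7.86 in LP and 7.79 to 8.13 in Con. It was 8.13 and 8.18 on LP+tau 1 and 2 and 7.84 and 7.88 on LP+tau 3 and 4, and 8.13 and 8.10 on Con 1 and 2 and 7.83 and 7.79 on Con 3 and 4. The log2 of their linear sum was highest on LP+tau 1 and 2, with 12.97 on LP+tau 2, against 12.41 to 12.83 over all Con arrays. Limma called 0 of the 7 in LP+tau against Con, beside 13.8% of all probe sets. It called 2, lower, in LP against Con, beside 33.7% called and 11.9% called lower of all probe sets. The part of heart transcripts in the Myh7 values was not tested.

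Fast Myh2, the 2A myosin of fast oxidative fibres, had 8.32, 8.27, 7.68 and 7.84 on the LP+tau arrays. It had 7.19, 7.72, 7.53 and 7.95 on the LP arrays and 7.28, 7.52, 7.49 and 7.34 on the Con arrays. LP+tau 1 and 2 were above every LP and Con array, LP+tau 3 and 4 were above Con but within the range of LP, and LP reached both below and above Con. Means were 8.03 ± 0.32 in LP+tau, 7.60 ± 0.32 in LP and 7.41 ± 0.12 in Con. Myh2 rose in LP+tau against Con by 0.62 on the log2 scale (SE 0.16, 95% interval 0.27 to 0.98), or 1.54-fold (1.20 to 1.97), with a limma adjusted p of 0.0306. Only 34 of the 18957 probe sets rose by a larger log2 fold change in that comparison, with falls not counted. By limma p, however, Myh2 ranked 1487 of the 18957.

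The Myh2 call depended on single arrays and on scaling. It was lost without LP+tau 1 (0.52, limma adjusted p = 0.0879), LP+tau 2 (0.54, adjusted p = 0.0578), Con 1 (0.58, adjusted p = 0.0634), Con 3 (0.65, adjusted p = 0.0627) or Con 4 (0.60, adjusted p = 0.0539). Quantile normalization, median centring and cyclic loess also ended it, with log2 differences of 0.58, 0.56 and 0.54. Without both LP+tau 1 and 2 the log2 difference was 0.36 (adjusted p = 0.194), and without both Con 3 and 4 it was 0.63 (adjusted p = 0.101). Its sign was the same under all 25 alternatives, between 0.355 and 0.739, and 13 of them made the call. LP differed from Con by 0.19 (95% interval -0.17 to 0.55, limma adjusted p = 0.369). LP+tau was above LP by 0.43 (0.07 to 0.79), a difference with an unadjusted p of 0.0218 and a limma adjusted p of 0.419.

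**Figure D2:**
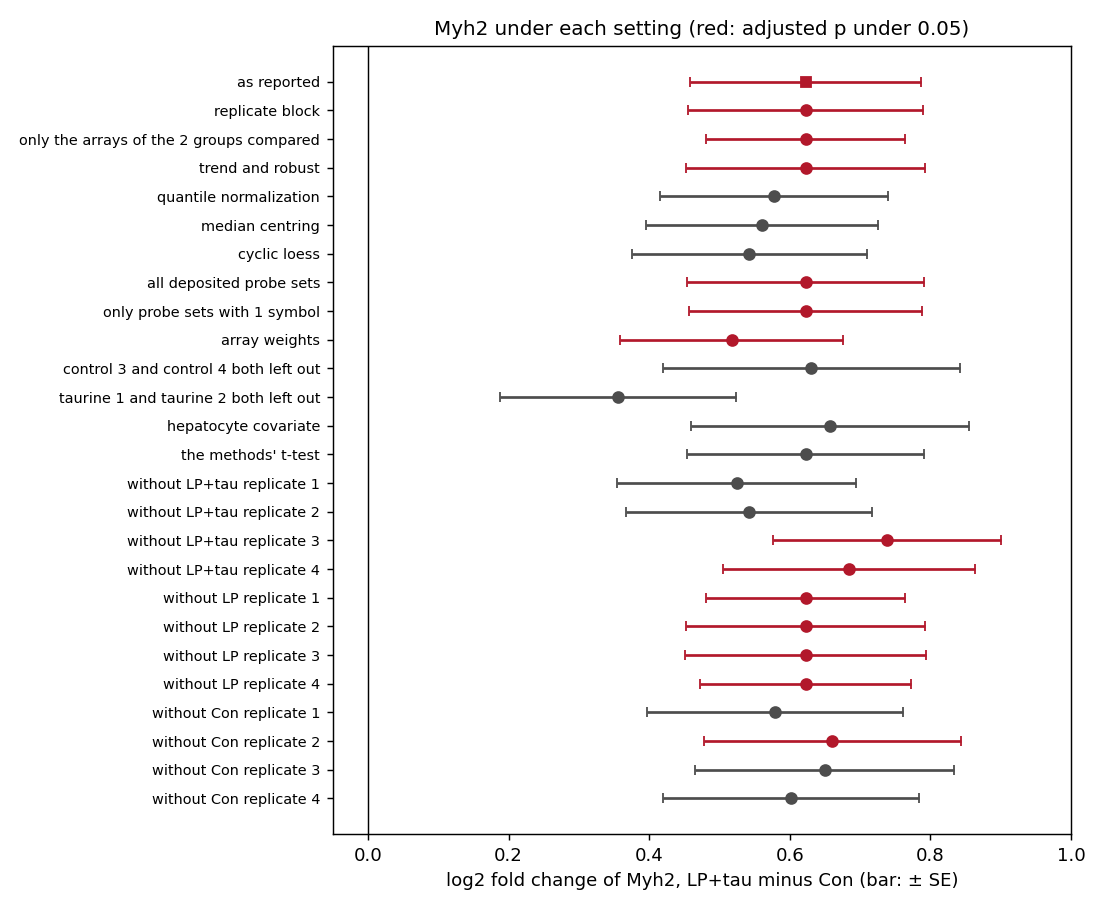
Log2 fold change of Myh2 in LP+tau minus Con (horizontal axis; bars are ± SE) as reported and under each of 25 alternatives, with red marks where the adjusted p was under 0.05. All points lie between 0.355 and 0.739, and the lowest is the fit without LP+tau 1 and 2.

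Fast Myh1, the 2X myosin, had 7.19, 7.49, 6.90 and 6.92 on the LP+tau arrays. The LP arrays read 6.80, 6.94, 6.81 and 6.94, and the Con arrays 6.92, 6.82, 6.89 and 6.68. LP+tau 1 and 2 were above all 8 arrays of LP and Con, and LP+tau 3 and 4 lay among them. Means were 7.12 ± 0.28 in LP+tau, 6.87 ± 0.08 in LP and 6.82 ± 0.11 in Con. The log2 difference of LP+tau from Con was 0.30 (SE 0.11, 95% interval 0.06 to 0.54, limma adjusted p = 0.0841), and it passed under 0 of 25 alternatives. Without LP+tau 1 and 2 it was 0.09 (adjusted p = 0.485). LP differed from Con by 0.05 (-0.20 to 0.29, adjusted p = 0.759), with the opposite sign under median centring, and LP+tau from LP by 0.25 (0.01 to 0.50, unadjusted p = 0.0434, limma adjusted p = 0.452).

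Fast Myh4, the 2B myosin of the fastest rodent fibres, had 7.40, 7.56, 7.21 and 7.29 on the LP+tau arrays. It had 7.18, 7.18, 7.22 and 7.35 on the LP arrays and 7.37, 7.40, 7.41 and 7.15 on the Con arrays. All 3 groups overlapped. Means were 7.37 ± 0.15 in LP+tau, 7.24 ± 0.08 in LP and 7.33 ± 0.12 in Con. LP+tau differed from Con by 0.03 (95% interval -0.14 to 0.21, limma adjusted p = 0.782), and the sign of that difference turned under 8 of 25 alternatives, median centring and cyclic loess among them. LP differed from Con by -0.10 (-0.27 to 0.08, adjusted p = 0.361) and LP+tau from LP by 0.13 (-0.05 to 0.31, adjusted p = 0.564).

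Counted over the family, limma called 1 of 5 members in LP+tau against Con, where it called 13.8% of all probe sets. An unadjusted p under 0.05 was reached by 3 of the 5, and by 35.3% of all probe sets. In 2 members, Myh7 and Myh2, the LP+tau and Con arrays did not overlap, as was the case for 20.2% of all probe sets. In LP against Con limma called 0 of 5 members, where it called 33.7% of all probe sets. There 0 members had an unadjusted p under 0.05, against 47.6% of all probe sets. All 5 members overlapped there, against 32.8% of all probe sets that did not. In LP+tau against LP limma called 0 of 5 members and 0% of all probe sets, 2 members had an unadjusted p under 0.05, against 10.8% of all probe sets, and none was free of overlap, against 6.87% of all probe sets. After Benjamini-Hochberg adjustment the methods' t-test called 0 members in each of the 3 comparisons. The comparisons of LP+tau and of LP with Con share the same 4 Con arrays.

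**Figure D3:**
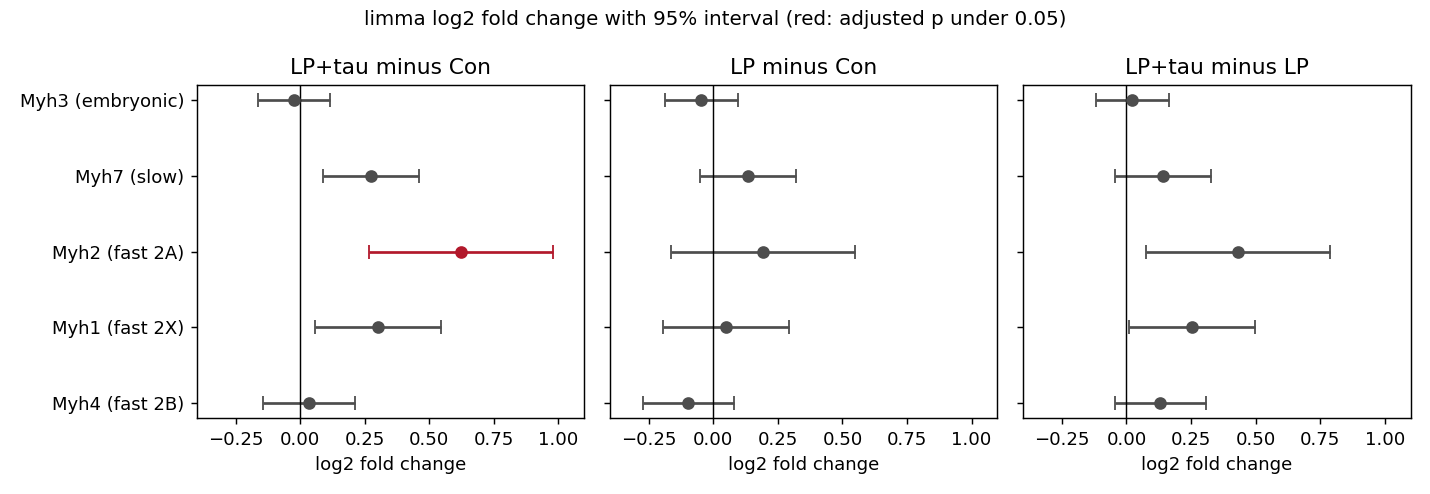
Log2 fold change with 95% interval (horizontal axis) of the 5 myosin heavy chains in LP+tau minus Con, LP minus Con and LP+tau minus LP, with red marks for an adjusted p under 0.05. Myh2 in LP+tau minus Con, at 0.62, is the only red mark, and every interval in LP minus Con spans 0.

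Isoforms were next set against each other within an array. The log2 value of one probe set minus that of another has no meaning as a level, but its shift between arrays shows unequal change of the 2 signals. Whether strong and weak probe sets respond alike to a change in RNA was not tested. The Myh3 signal was at percentile 99.2 and the Myh2 signal at 48.9. Fast Myh2 minus embryonic Myh3 was -4.50, -4.44, -5.06 and -4.78 on the LP+tau arrays, -5.40, -5.06, -5.15 and -4.79 on the LP arrays, and -5.57, -5.26, -5.25 and -5.27 on the Con arrays. All 4 LP+tau arrays were above all 4 Con arrays, with a mean shift of 0.65, and LP overlapped both. LP lay 0.24 above Con, and LP+tau 0.41 above LP.

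Slow Myh7 minus Myh3 was -1.33, -1.29, -1.41 and -1.32 on the LP+tau arrays, -1.58, -1.55, -1.29 and -1.41 on the LP arrays, and -1.63, -1.68, -1.57 and -1.67 on the Con arrays. LP+tau was again above Con on every array, by 0.30 in the mean. Its Con arrays lay close together, as did its LP+tau arrays. LP 4 (-1.413) lay just inside the LP+tau range of -1.414 to -1.286, and LP 3 (-1.285) just above it. LP 1 fell into the Con range. Fast Myh1 minus Myh3 was -5.84 to -5.22 in LP+tau, -5.88 to -5.79 in LP and -5.97 to -5.86 in Con, and its LP+tau and Con arrays did not overlap either, with a mean shift of 0.32.

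Fast Myh4 minus Myh3 overlapped between all groups, with a shift of 0.06 in LP+tau against Con. Fast Myh2 minus slow Myh7 also overlapped, with a shift of 0.35 in LP+tau against Con and 0.06 in LP against Con. In all, 3 of the 5 differences were free of overlap in LP+tau against Con, 0 in LP against Con and 0 in LP+tau against LP. All 3 subtract the same Myh3, and Myh7 and Myh2 were free of overlap by themselves, so they are not separate results. For Myh1 minus Myh3 the gap was narrow, from -5.856 on the highest Con array to -5.841 on the lowest LP+tau array. Of single probe sets 20.2% were free of overlap in LP+tau against Con, and the share over pairs of probe sets was not computed. These differences are descriptions without a test.

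**Figure D4:**
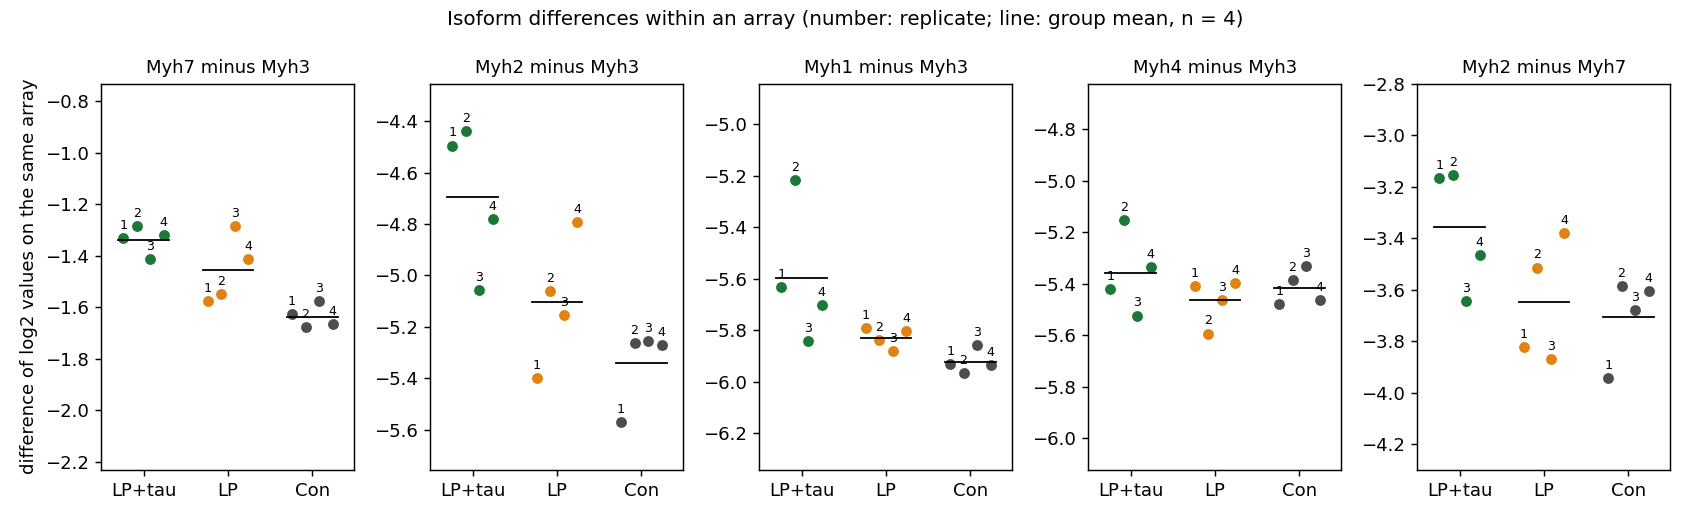
Difference of the log2 values of 2 isoforms on the same array (vertical axis) for LP+tau, LP and Con, with replicate numbers beside the points and a line for each group mean (n = 4). Myh2, Myh1 and Myh7 minus Myh3 are higher on all 4 LP+tau arrays than on all 4 Con arrays.

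LP+tau 1 and 2 were the highest arrays of their group for Myh7, Myh2, Myh1 and Myh4, but not for Myh3. Their mean exceeded that of LP+tau 3 and 4 by 0.54 for Myh2 on the log2 scale, 0.43 for Myh1, 0.23 for Myh4, 0.14 for Myh7 and 0.08 for Myh3. The same arrays had the highest immediate early genes, which respond within minutes to stimulation and to tissue handling. The mean of 10 measured genes of 12 listed was 8.26, 8.74, 7.93 and 7.87 on LP+tau arrays 1 to 4, 7.65, 7.50, 7.50 and 7.48 on the LP arrays, and 8.04, 7.98, 7.44 and 7.39 on the Con arrays. Summed on the linear scale, the 10 genes gave log2 values of 11.72 to 12.59 in LP+tau, 11.12 to 11.41 in LP and 10.93 to 11.93 in Con. Limma called none of them in LP+tau against Con, beside 13.8% of all probe sets. It called 1, lower, in LP against Con, beside 33.7% called and 11.9% called lower of all probe sets. Con 1 and 2 were also higher than Con 3 and 4 in these genes. Con 1 had the lowest Myh2 of its group but the highest Myh3, Myh7 and Myh1. Over the 12 arrays, Pearson's r with the mean of these genes was 0.83 for Myh1, 0.71 for Myh4 and 0.60 for Myh2. It was 0.51 for Myh7 and 0.31 for Myh3. The part of the immediate early genes in the myosin values was not tested.

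**Figure D5:**
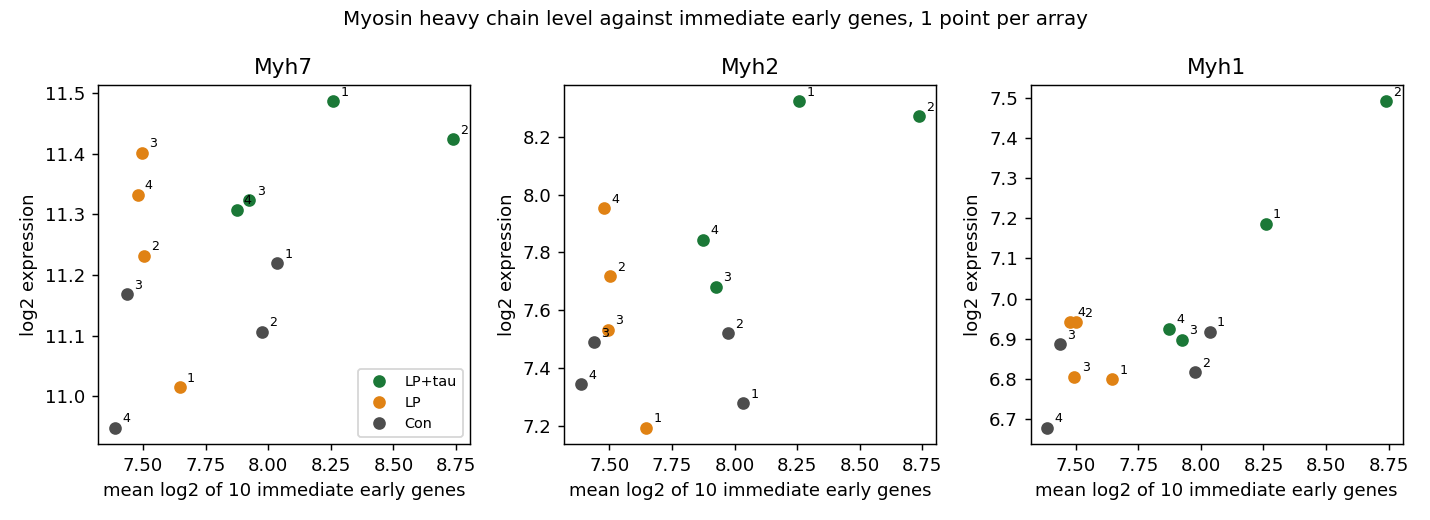
Log2 expression of Myh7, Myh2 and Myh1 (vertical axes) against the mean log2 value of 10 immediate early genes (horizontal axes), 1 point per array, coloured by group with replicate numbers. LP+tau 1 and 2, at 8.26 and 8.74 on the horizontal axis, lie at the upper right of each panel.

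Other arrays stood apart within their groups. LP 1 was the lowest LP array for all 5 members. Its mean of 6 measured adipocyte markers of 9 listed was 9.72, against 8.17, 8.49 and 8.89 on LP 2 to 4, 7.55 to 8.43 in LP+tau and 8.20 to 8.92 in Con. The log2 of their linear sum was 11.30 to 11.74 in LP+tau, 11.53 to 12.65 in LP and 11.39 to 12.08 in Con. Con 4 was the lowest Con array for Myh3, Myh7, Myh1 and Myh4, and it was the array with the highest hepatocyte markers. The mean of 10 measured skeletal muscle markers of 12 listed was 12.07 there, against 12.30 to 12.39 in LP+tau, 12.27 to 12.32 in LP and up to 12.29 on the other Con arrays. Of these markers 1 of 10 rose in LP+tau against Con and 2 of 10 in LP against Con, near the 10.2% and 21.8% of all probe sets. What these transcripts contribute to the myosin values was not tested beyond the fits without those arrays and with hepatocyte markers as a covariate, in which Myh2 was 0.66 above Con on the log2 scale (limma adjusted p = 0.0661).

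Genes that work with the 5 members were set beside them. Of 5 measured other myosin heavy chains (Myh6, Myh7b, Myh10, Myh11 and Myh14, of 9 listed), neither the methods' t-test nor limma called any in any comparison. Of all probe sets it called 13.8% in LP+tau against Con, 33.7% in LP against Con and 0% in LP+tau against LP. An unadjusted limma p under 0.05 was reached by 2 of the 5 in LP+tau against Con, beside 35.3% of all probe sets. It was reached by 1 in LP against Con, beside 47.6%, and by 0 in LP+tau against LP, beside 10.8%. The median log2 fold change of the 5 was 0.08 in LP+tau against Con, beside 0.06 over all probe sets, 0.09 in LP against Con, beside 0.07, and 0.04 in LP+tau against LP, beside 0.00. Of 13 measured light chains and sarcomere partners (19 listed), 2 rose in LP+tau against Con and 2 in LP against Con, and none fell in either on the deposited scale. In LP the count was 0 after quantile normalization, after cyclic loess or by the methods' t-test, and after median centring 1 rose and 1 fell. In LP+tau it was 1 after quantile normalization or median centring and 0 after cyclic loess or by the methods' t-test. Probe sets called higher were 10.2% of all in LP+tau against Con and 21.8% in LP against Con. The count in LP+tau was 0 without LP+tau 1, without Con 3 and 4 or without LP+tau 1 and 2, and 1 when any other single array but Con 2 was left out. The count in LP was 0 without Con 3 and 4 and 1 without LP 1, LP 3, Con 3 or Con 4.

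Among these partners, skeletal myosin light chain kinase (Mylk2), which phosphorylates the fast regulatory light chain, rose in both. Mylk2 had 9.84, 9.89, 9.54 and 9.65 on the LP+tau arrays, 9.79, 9.59, 9.86 and 9.37 on the LP arrays and 9.33, 9.27, 9.21 and 9.05 on the Con arrays. Every array of both low protein groups was above every Con array. The log2 difference from Con was 0.52 in LP+tau (limma adjusted p = 0.0170) and 0.44 in LP (adjusted p = 0.0132), and these calls were lost under 6 and 4 of 26 alternatives. The M-band protein myomesin 1 (Myom1) rose by 0.27 in LP+tau (adjusted p = 0.0486), a call lost under 20 of 26 alternatives, and myosin binding protein H (Mybph) rose by 0.32 in LP (adjusted p = 0.0298), a call lost under 11 of 26.

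Of 11 measured genes of myosin folding and assembly (12 listed), 3 rose in LP+tau against Con (27.3%, beside 10.2% of all probe sets). In LP against Con 4 rose (36.4%, beside 21.8%), and none fell in either on the deposited scale. In LP, 2 rose and 1 fell after median centring, 1 rose and 1 fell after cyclic loess, and 2 rose after quantile normalization. In LP+tau 1 rose after quantile normalization or median centring and 0 after cyclic loess or by the methods' t-test. Their median log2 fold change was 0.27 in LP+tau against Con, beside 0.06 over all probe sets, and 0.16 in LP against Con, beside 0.07. All 11 lay above the median level. In a fit of the 9478 probe sets above that level, 3332 were called higher in LP against Con, among them 4 of the 11 folding genes. It called 40.8% of the 9478 in either direction there, and 86.3% of those calls were higher. The 21.8% over all probe sets is thus not a like background for these genes. In LP+tau against Con that fit called 2145 higher and 26% in either direction. Unc45b, the chaperone that folds the myosin motor domain, had 9.52, 9.50, 9.65 and 9.61 on the LP+tau arrays, 9.60, 9.60, 9.80 and 9.56 on the LP arrays and 9.34, 9.38, 9.25 and 9.05 on the Con arrays. Both low protein groups lay above Con without overlap. Unc45b rose by 0.31 in LP+tau (limma adjusted p = 0.0258) and by 0.38 in LP (adjusted p = 0.00693), and the call in LP+tau was lost under 11 of 26 alternatives (adjusted p up to 0.134), that in LP under 0 of 26. Its partner Smyd1, a muscle methyltransferase that takes part in sarcomere assembly, rose by 0.33 in LP+tau (adjusted p = 0.0148) and by 0.24 in LP (adjusted p = 0.0166), calls lost under 5 and 7 of 26 alternatives. The small heat shock protein Cryab rose by 0.29 in LP+tau (adjusted p = 0.0417), a call lost under 19 of 26 alternatives. The co-chaperone and ubiquitin ligase Stub1 rose by 0.28 in LP (adjusted p = 0.00614, lost under 1 of 26), and the cytosolic chaperone gene Hsp90ab1 by 0.14 in LP (adjusted p = 0.0343), the second lost under 14 of 26. Without Con 3 and 4, 0 of the 11 passed in LP+tau against Con and 2 in LP against Con. The count in LP+tau was 1 without LP+tau 1, LP+tau 4 or Con 3 and 0 without LP+tau 1 and 2, and the count in LP was 2 without LP 3.

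Of 33 measured regulators of fibre type (50 listed), 10 rose in LP+tau against Con (30.3%, beside 10.2% of all probe sets). In LP against Con 12 rose (36.4%, beside 21.8%), and none fell in either on the deposited scale. Their median log2 fold change was 0.18 in LP+tau against Con, beside 0.06 over all probe sets, and 0.17 in LP against Con, beside 0.07. Above the median level lay 28 of the 33. In a fit of the 9478 probe sets above that level, 3332 were called higher in LP against Con, among them 13 of the 28 regulators. In LP+tau against Con that fit called 2145 of the 9478 higher. In either direction it called 40.8% of the 9478 in LP against Con and 26% in LP+tau against Con. The counts of 10 and 12 came down steeply under some settings, and some regulators then fell. In LP, 3 rose and 2 fell after median centring, and 1 rose and 1 fell after cyclic loess, as in LP+tau after cyclic loess. Quantile normalization left 3 that rose in LP+tau and 2 in LP, and 1 fell in LP without Con 2. Without Con 3 and 4, 0 rose in LP+tau and 3 in LP, and without LP+tau 1 and 2 the count in LP+tau was 2. With 1 array left out, the count in LP+tau was 4 without LP+tau 1 or Con 3, 5 without LP+tau 4 or Con 4 and 6 without LP+tau 3. The count in LP was 3 without LP 3 and 7 without LP 1 or Con 3.

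The regulator Sox6, which represses slow fibre genes in mouse, had 8.55, 8.63, 8.54 and 8.60 on the LP+tau arrays, 8.42, 8.46, 8.52 and 8.11 on the LP arrays and 8.18, 8.27, 8.15 and 8.07 on the Con arrays. Sox6 rose in LP+tau against Con by 0.42 on the log2 scale (limma adjusted p = 0.0145, lost under 2 of 26 alternatives), and its LP+tau arrays were above all arrays of LP and Con. Ppp3ca, a catalytic subunit of the phosphatase calcineurin that activates slow fibre genes, rose by 0.27 in LP+tau (adjusted p = 0.0127) and by 0.18 in LP (adjusted p = 0.0204), calls lost under 2 and 6 of 26 alternatives. The other measured calcineurin subunits were not called. Ppp3cb differed from Con by -0.018 in LP+tau and -0.005 in LP, and Ppp3r1 by 0.12 and 0.10. The myogenic factor Myf6 rose by 0.36 in LP+tau (adjusted p = 0.0177) and by 0.30 in LP (adjusted p = 0.0148), calls lost under 4 and 3 of 26 alternatives. The nuclear factor I gene Nfic rose by 0.30 in LP+tau (adjusted p = 0.0185) and by 0.35 in LP (adjusted p = 0.00576), lost under 5 and 1 of 26. The thyroid hormone receptor Thra, whose hormone drives the postnatal switch to fast myosins, rose by 0.20 in LP+tau (adjusted p = 0.0315), a call lost under 14 of 26 alternatives, and by 0.31 in LP (adjusted p = 0.00492), lost under 0 of 26. The other receptor of that hormone, Thrb, went the other way without a call. It differed from Con by -0.31 in LP+tau (limma adjusted p = 0.123) and by -0.32 in LP (adjusted p = 0.0763). The chromatin subunit Smarcd3 rose by 0.26 in LP (adjusted p = 0.0174), lost under 7 of 26. In LP+tau against LP neither limma nor the methods' t-test called any of the regulators, folding genes or sarcomere partners, and limma called 0% of all probe sets. An unadjusted limma p under 0.05 was reached by 4 of 33, 3 of 11 and 2 of 13 of them, beside 10.8% of all probe sets.

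Across the 12 arrays Pearson's r between log2 values was 0.82 between Myh2 and Myh1, 0.80 between Myh7 and Myh2 and 0.76 between Myh1 and Myh4. It was 0.69 between Myh7 and Myh1 and 0.57 between Myh2 and Myh4. For Myh3 it was 0.27 with Myh2, 0.31 with Myh1, 0.41 with Myh7 and 0.46 with Myh4, close to the 0.47 between Myh7 and Myh4. With group means removed, the highest values were 0.86 between Myh1 and Myh4 and 0.73 between Myh3 and Myh7. These correlations describe 12 arrays that share groups, scaling and composition. Fast myosin genes are close in sequence, and cross-hybridisation between their probe sets was not tested.

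The genes most like each member were taken by Pearson's r over the 12 arrays among about 6090 genes above the median level. Myh3 was most like Lox, the collagen cross-linking lysyl oxidase (r = 0.92), Ndufb4, a subunit of respiratory complex I (0.89), and Pnrc2 (0.89). Myh7 was most like Tpm2, the beta tropomyosin of the thin filament (0.91), Akr1b1, aldose reductase (0.88), and Chodl (0.87). Myh2 was most like Mtus1 (0.91), the muscle-enriched Apobec2 (0.91) and Pbdc1 (0.90). Myh1 was most like Tob1 (0.95), the co-chaperone gene Dnajb4 (0.94) and Pxdc1 (0.94), and Myh4 most like the transcription factor gene Cebpd (0.83), cytochrome c (Cycs, 0.83) and Sesn1 (0.81). The highest likeness of Myh4 was thus below the tenth highest of Myh1 (0.91), Myh2 (0.88), Myh7 (0.86) and Myh3 (0.85).

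In the authors' deposited table of 1318 probe sets chosen by SAM over the 3 groups, Myh2 was the only one of the 5 members. None of the 5 was in the authors' deposited table of 895 probe sets for low protein against control. Detected probe sets numbered 18957, and over 5 members these counts are no test. Both selections were made from the same arrays as the limma tests, so they are not separate evidence for the Myh2 call.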

How the data were processed

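Each pool was hybridised to 1 Affymetrix array. The deposited log2 values, 1 per probe set, were made with RMA in R 3.2.2 per the submitters' processing notes. The version of RMA was not given in the sources used here, nor was a genome build. The authors kept 18957 of 29214 probe sets as detected, per the deposited descriptions. Their table of 895 probe sets also holds p-values, group means on the linear intensity scale and ratios between them, per the file headers, and none of these values was used.

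All 12 arrays entered 1 limma 3.58.1 fit (R 4.3.3) of 3 group means, with plain eBayes (neither trend nor robust), two-sided tests and p-values adjusted by Benjamini-Hochberg across the 18957 probe sets. The platform annotation gives a single symbol to 11721 probe sets and several symbols to 141, and leaves 7095 unlisted. The members, the lists of genes and markers and most alternatives were chosen with earlier results of these data known. Named genes are the 5 members, up to 4 called genes per list and comparison by smallest p, and the 3 genes of highest r with each member. Thrb, Ppp3cb, Ppp3r1 and Hsp90aa1 were named outside that rule, beside their called relatives. Only the Myh2, Myh1 and Myh4 promoters were shown, chosen after the shared run was found. Same-number arrays of different groups had correlated deviations above 0.1 in 3 of 12 pairs (-0.205 to 0.2), so arrays were not paired. On simulated data for LP against Con with 18957 probe sets, 85% of changes of 0.5 and 97% of changes of 1 (log2) were recovered, with 7 false calls among 189. The simulated noise was independent between probe sets. It held no shared deviations such as the hepatocyte transcripts on Con 3 and 4, so these rates do not carry over to the real arrays.

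Alternatives changed the fit (block, groups entered, eBayes options, array weights, hepatocyte covariate), the scaling, the probe sets tested and the arrays kept.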

Additional observations from a re-analysis of the deposited data

Results flagged for a closer look

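Myh2 minus Myh3 in the Con group held 1 array far from the others. It was -5.57 on Con 1, against -5.27 to -5.25 on Con 2 to 4, and the gap to the nearest array took a share of 0.948 of the whole range of the group. Of 30 groups of 4 arrays looked at in this way (members and isoform differences), this was the only one, and chance gives about 1 in 20. Without Con 1, Myh2 was 0.58 above Con in LP+tau on the log2 scale (limma adjusted p = 0.0634).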

How the results depend on the processing

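The count of members called in LP+tau against Con was 1 as reported, 2 with the trend and robust options, 0 after quantile normalization, median centring or cyclic loess, 0 without Con 3 and 4, without LP+tau 1 and 2, with the hepatocyte covariate or by the methods' t-test, and 0 to 2 when each array was left out in turn. Limma's adjusted p for Myh2 was 0.0532 after quantile normalization, 0.0510 after median centring and 0.0750 after cyclic loess, and the cause was not tested. With a filter at the median level, Myh2, Myh1 and Myh4 were not tested and the 1 call was Myh7 (limma adjusted p = 0.0345). With the replicate number as a block, the call of Myh2 held (0.62, limma adjusted p = 0.0450), as did every other member's side of the threshold. In LP against Con and LP+tau against LP, no alternative called a member.

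Signs turned for small differences. Myh4 in LP+tau against Con was -0.028 after median centring, -0.0044 after cyclic loess, -0.044 with array weights, -0.016 without Con 3 and 4, -0.078 without LP+tau 1 and 2, -0.015 with the hepatocyte covariate, and -0.030 to 0.085 with single arrays left out. Myh1 in LP against Con was -0.034 after median centring and -0.0016 to 0.078 with single arrays left out. Myh3 was -0.068 to 0.010 in LP+tau against Con and -0.014 to 0.055 in LP+tau against LP with single arrays left out, and -0.018 in the second without LP+tau 1 and 2. Myh1 minus Myh3 shifted by 0.144 in LP against Con after quantile normalization, and Myh7 minus Myh3 by 0.24 in LP+tau against Con after cyclic loess.

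Over all probe sets, limma called 2616 in LP+tau against Con (491 to 4276 over 26 alternatives), 6390 in LP against Con (2564 to 7959) and 0 in LP+tau against LP (0 to 2, with 2047 at an unadjusted p under 0.05). The count in LP+tau against Con was 620 without LP+tau 1, 1717 without LP+tau 3, 1098 without LP+tau 4, 1580 without Con 1 and 748 without Con 3, and that in LP against Con was 4235 without LP 2, 3929 without LP 3 and 4211 without Con 3. The share of calls that were higher in LP+tau than Con was 73.9% as deposited, 46.1% after quantile normalization, 32.9% after median centring and 29.3% after cyclic loess, and in LP against Con 64.6%, 51.1%, 29.4% and 36.9%. Fibre type regulators that rose numbered 0 to 14 in LP+tau and 1 to 15 in LP, folding genes 0 to 4 in LP+tau and 1 to 5 in LP, and sarcomere partners 0 to 3 in LP+tau and 0 to 2 in LP. Regulators that fell numbered 0 to 1 in LP+tau and 0 to 2 in LP, folding genes and sarcomere partners that fell 0 in LP+tau and 0 to 1 in LP. The methods' t-test, the alternatives for the gene lists, and cyclic loess and the fit without LP+tau 1 and 2 for the isoform differences were chosen after seeing the data. Another probe set per gene could not be tried, because each gene had 1.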
